A study of Homo sapiens with 4 samples.

Results

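The genes described here are 10 genes of the actin and contractile cytoskeleton: ACTB, ACTG1, ACTA2, TAGLN, MYL9, CNN1, TPM1, TPM2, CALD1 and ACTN1. They were taken by name, and every probe whose transcript accession is a RefSeq transcript of one of them was used. This gave 15 of 50590 probes and 10 of 20501 genes with a symbol. MCF-10A, a human line of non-tumorigenic mammary epithelial cells, was treated with 10 µM of a stapled peptide, a short peptide whose side chains are chemically linked to hold its helix. Total RNA was hybridised to single-colour Agilent arrays after 24 h or 48 h. One agent was labelled stapled-peptide and the other non-specific stapled-peptide, the latter entered as the control treatment, and the labels do not say which of the named peptides of the study each one is. The question behind the comparison was whether a stapled peptide has off-target effects on gene expression in normal cells. Both agents were used at the same dose in the same supplemented mammary epithelial medium, and no array of untreated cells was used here.

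Each peptide and time had 1 array, 4 in all. No difference between arrays therefore has a replicate check, and no p-value is given; the few arrays limit how precise any value can be. Values are given in the order stapled-peptide 24 h, non-specific stapled-peptide 24 h, stapled-peptide 48 h and non-specific stapled-peptide 48 h, so that the last array is the one labelled with the last of these. Differences are log2 values of quantile-normalized signals, written as non-specific stapled-peptide minus stapled-peptide or as 48 h minus 24 h, and a gene was counted as higher or lower when it passed 2-fold. With bulk RNA, fewer cells of a type and less RNA per cell cannot be told apart.

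Actin subunits assemble into filaments, along which tropomyosins lie and on which non-muscle myosin pulls. Calponin, caldesmon and transgelin bind the filament and modulate that pull, and alpha-actinin ties filaments into bundles. Many of these genes are known targets of SRF, a transcription factor that binds the CArG box and works with cofactors that sense the pool of free actin, and several are used as markers of smooth muscle, myoepithelial and basal mammary cells.

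The array labelled non-specific stapled-peptide, 48 h, stood apart from the other 3 and went against its label. Over probes that passed the background mark on at least 1 of the arrays compared, the other 3 arrays correlated with one another at Pearson's r between 0.976 and 0.978, and with this array at 0.799 to 0.807. Basal mammary epithelial markers, a check of the labelled cell line, had 10 of 10 genes well above background on the other 3 arrays and 7 of 10 on this one, and the log2 of their summed signal was between 16.66 and 16.68 on the 3 arrays and 8.71 on this one. KRT5, a keratin of basal epithelium, read 14.65, 14.54 and 14.59 on the other arrays and 5.02 here. Markers of embryonic kidney lines and neural cells had a log2 summed signal of 7.77 to 7.88 on the 3 arrays and 15.28 on this one. Of these, 5 of 8 were well above background here and 2 or 3 elsewhere. UCHL1 (14.25), CKB (13.3) and LIN28B (12.86) read highest here. L1CAM was lower at 48 h, as a bound within 2-fold, and PHOX2A was dim on every array. PAX2 was lower within 2-fold by its brightest probe and at least 14.8-fold higher by the other. The marker lists were chosen with earlier results of these data known, so this check is not independent of them. The 48 h comparison between peptides and the 48 h against 24 h comparison with non-specific stapled-peptide both rest on this array and share it. The 24 h comparison between peptides and the 48 h against 24 h comparison with stapled-peptide do not compare it with another array. Their values were still normalized together with it. The part of the marker shift in the cytoskeleton values was not tested.

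Between the other 3 arrays, the cytoskeleton genes moved little, and so did all genes. The median over all genes was 0.01 between peptides at 24 h and 0.0 from 24 h to 48 h with stapled-peptide. The standard deviation across genes was 0.34 in both comparisons. At 24 h, 9 of the 10 genes had a value, with log2 differences between -0.17 and 0.10 and a median of -0.01. None was 2-fold higher, against 0.838% of all genes with a value, and none was 2-fold lower, against 1.04%. With stapled-peptide from 24 h to 48 h, the 9 genes with a value lay between -0.14 and 0.07 with a median of 0.02, and again none was higher, against a background of 0.923%, or lower, against 1.13%. A member probe well above background spread over 0.02 to 0.20 on the log2 scale across these 3 arrays.

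At 48 h, the array labelled non-specific stapled-peptide had lower signals than the stapled-peptide array for 8 of the 10 genes, ACTB, ACTG1, TAGLN, MYL9, TPM1, TPM2, CALD1 and ACTN1. Among all genes with a value, 19.8% were 2-fold lower. CNN1, dim on the stapled-peptide array, was the 1 gene counted as higher, against 21.2% of all genes, and ACTA2 stayed within 2-fold. The median over the 10 genes was -2.06, and over all genes it was 0.03 with a standard deviation across genes of 1.76. MYL9 and TPM2 were more than 10-fold lower, 2 of 10 genes, against 3.92% of all genes. Against the 24 h array of the same label, which shares the array that stood apart, 8 genes were lower with a background of 20.1%, 1 was higher with a background of 21.3%, and the median was -2.11. Of the 10 genes, 9 were well above background on all 4 arrays, and among these the median at 48 h was -2.45. The choice of genes was made with these differences known, so the counts describe the genes and give no independent support to a direction.

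**Figure D1:**
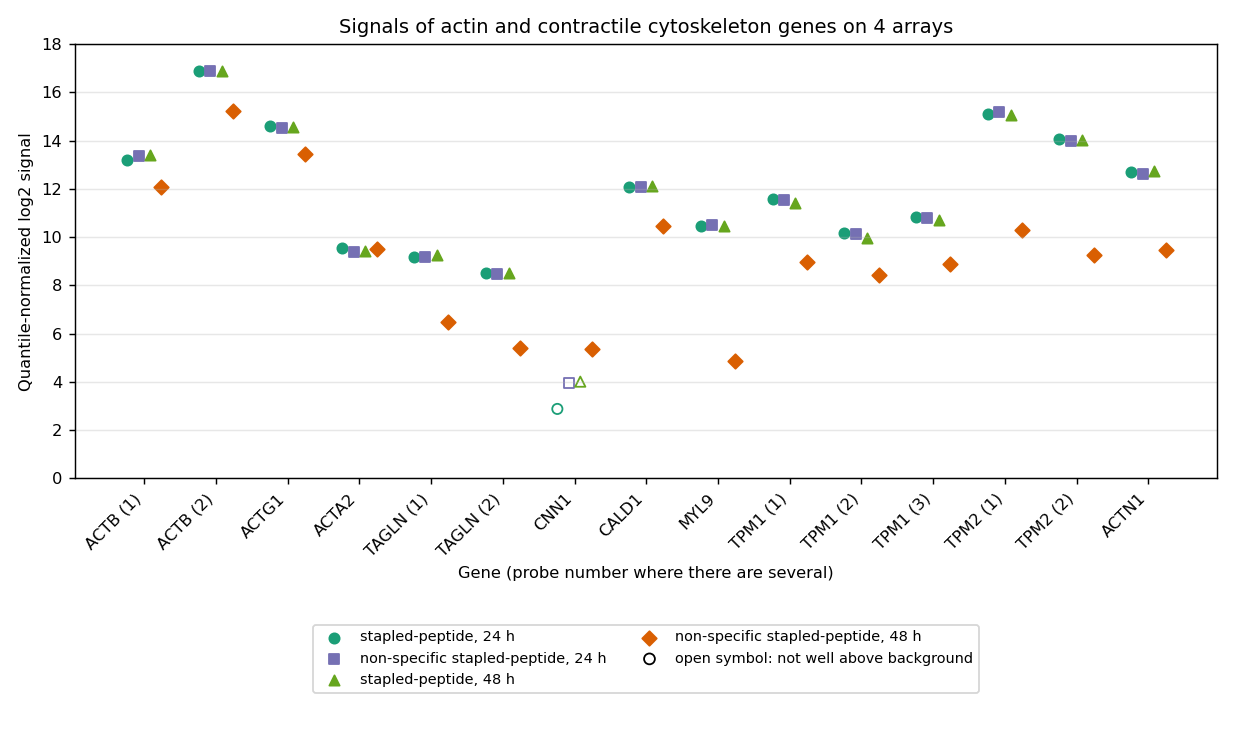
Quantile-normalized log2 signal (vertical axis) of the 15 probes of the 10 genes (horizontal axis), with 1 symbol for each of the 4 arrays and open symbols where a probe was not well above background. For 13 probes the array labelled non-specific stapled-peptide, 48 h (orange diamonds) lies below the other 3, which lie close together. ACTA2 and CNN1 are the exceptions.

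The windows before the gene starts are shown first. Many of these genes are known targets of SRF, so a larger share with its motif than among all genes gives no independent support. RefSeq windows, of 250 bases before and 50 bases after a start on GRCh38.p14, were held for 7 of the 10 genes, in 15 windows, and the other 3 are ACTB, TAGLN and MYL9. The CArG box, whose pattern reads the same on both strands, was searched by its 10 letters. It was in the windows of 2 of the 7 genes, ACTG1 and ACTN1, and in 2 of 15 windows, or 13.3%, against 454 of 35116 windows of all genes, or 1.29%. The 250 bases before the start of both genes follow, on the minus strand, with the CArG box in capitals. That of ACTG1 lies at chr17:81512800-81513049 with its box beginning 94 bases before the start, and that of ACTN1 at chr14:68977567-68977816 with its box beginning 171 bases before the start.
ACTG1: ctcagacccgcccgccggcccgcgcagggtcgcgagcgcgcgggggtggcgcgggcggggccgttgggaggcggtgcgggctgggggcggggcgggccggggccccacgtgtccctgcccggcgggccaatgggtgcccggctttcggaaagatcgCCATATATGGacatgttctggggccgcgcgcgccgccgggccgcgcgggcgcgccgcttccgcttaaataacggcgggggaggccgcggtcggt
ACTN1: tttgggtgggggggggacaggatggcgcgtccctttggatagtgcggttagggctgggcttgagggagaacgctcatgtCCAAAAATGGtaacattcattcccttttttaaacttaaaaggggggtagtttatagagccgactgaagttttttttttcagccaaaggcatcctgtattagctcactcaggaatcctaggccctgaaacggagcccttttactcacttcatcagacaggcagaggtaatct
The letters are a match to the motif and not a measured site, and a window without them says only that they are not in that window.

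ACTB and ACTG1 encode the cytoplasmic beta and gamma actins, the main filament proteins of non-muscle cells. For the ACTB probe with the highest mean signal, the log2 signals on the 4 arrays were 16.86, 16.87, 16.89 and 15.23. The first 3 arrays were nearly equal and the last was lower, by 1.66 on the log2 scale or 3.16-fold against the stapled-peptide array of 48 h. A second ACTB probe, printed in 10 spots per array, read 13.18 and 13.34 at 24 h and 13.38 and 12.06 at 48 h, a 2.49-fold lower signal. Its spots before normalization ranged from 13.16 to 13.50 over the first 3 arrays and from 11.98 to 12.18 on the last, with a standard deviation of 0.05 or 0.06 on each array, so the ranges of spots did not overlap. These spots share 1 hybridisation per array and cover technical spread only. ACTG1 read 14.62 and 14.53 at 24 h and 14.54 and 13.46 at 48 h, which was 2.11-fold lower on the last array and the smallest of the 8 lower values, just past the 2-fold threshold.

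ACTA2 encodes the alpha actin of vascular smooth muscle. It read 9.56, 9.39, 9.44 and 9.51, so that the array that stood apart lay inside the range of the other 3. The 48 h difference of 0.07 put ACTA2 near the middle of all genes, 51.4% of which had a lower value. The actins are close in sequence, the probe sequences are not in the files, and how far an actin probe also reads the transcripts of other actins was not tested.

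TPM1 and TPM2 encode tropomyosins, coiled-coil proteins that run along the actin filament and set which other proteins bind it. The TPM2 probe with the highest mean signal read 15.09 and 15.19 at 24 h and 15.06 and 10.30 at 48 h, and the other TPM2 probe 14.08 and 13.99, then 14.02 and 9.26. Both put the last array far below the rest, by 26.9-fold and 27.2-fold, and their log2 differences of -4.75 and -4.76 were 0.01 apart. The 3 TPM1 probes also gave the lowest signal on the last array but differed in size. The probe with the highest mean signal read 11.56 and 11.55 at 24 h and 11.41 and 8.96 at 48 h, 5.48-fold lower. Another read 10.82 and 10.79, then 10.72 and 8.87, 3.59-fold lower, and the remaining one 10.15 and 10.12, then 9.98 and 8.43, 2.93-fold lower. The log2 differences of these probes spread over 0.91, against 0.34 for the ACTB probes and 0.33 for those of TAGLN. TPM1 is spliced into many isoforms, and which of them each probe reads was not tested.

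Caldesmon (CALD1), transgelin (TAGLN) and calponin 1 (CNN1) bind actin filaments, and all are used as markers of smooth muscle and related contractile cells. CALD1 read 12.06 and 12.06 at 24 h and 12.11 and 10.47 at 48 h, 3.12-fold lower on the last array. The TAGLN probe with the higher mean signal read 9.17 and 9.16, then 9.25 and 6.48, and the other 8.52 and 8.45, then 8.51 and 5.41. Both TAGLN probes were lowest on the last array, by 6.80-fold and 8.56-fold at 48 h. CNN1 took the opposite direction at the floor of the measurement. Its signal was 2.88, 3.97 and 4.01 on the first 3 arrays, none well above background, and 5.38 on the last, where it was. The dim signal of 4.01 lay above the lowest signal well above background on its array, 3.89, and was kept as it was. Against it CNN1 was 2.59-fold higher at 48 h, a size that rests on a signal below the mark. The scanner's error estimate for this probe was between 26.2% and 56.1% of the signal on the stapled-peptide arrays and 12.3% on the last. The difference passed 2-fold under quantile normalization and not under normexp background correction, where it was 0.47.

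MYL9 encodes a regulatory light chain of myosin II, whose phosphorylation switches contraction on, and had the largest difference of the 10 genes under every setting but normexp background correction, where TPM2 had. It read 10.45, 10.50, 10.47 and 4.86. The first 3 arrays lay within 0.05 of each other, and the last was 48.8-fold lower than the stapled-peptide array of 48 h and 49.8-fold lower than the 24 h array of its own label. Only 1.2% of all genes had a lower value at 48 h. The raw signal was 72.2, 78.8, 71.2 and 3.97 times the local background, so that the last value was well above background but close to it, and under normexp background correction the log2 difference was -3.96 instead of -5.61. Among 14041 genes well above background on all 4 arrays, the profiles nearest to that of MYL9 after centring each on its mean, by Euclidean distance over the 4 arrays, were those of ZBTB16 (0.051), ABCA6 (0.062), DPYSL3 (0.064), IFITM2 (0.079) and GALNT15 (0.088), whose 48 h differences were between -5.69 and -5.56. With 4 arrays, this likeness is mostly the size of 1 difference.

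ACTN1 encodes a non-muscle alpha-actinin that crosslinks filaments in stress fibres and anchors them at adhesions. It read 12.71 and 12.60 at 24 h and 12.73 and 9.45 at 48 h. The last array was the lowest, by 9.70-fold, just inside the 10-fold threshold, and 4.0% of all genes had a lower value.

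The wider actin cytoskeleton was described with 75 further genes in 12 role lists, chosen with the results for the 10 genes known, of which 74 were on the array. At 24 h between peptides, none of the 69 genes with a value was 2-fold higher, against 0.838% of all genes, or lower, against 1.04%. From 24 h to 48 h with stapled-peptide, again none of 69 was higher, against 0.923%, or lower, against 1.13%. With shares this small among all genes, such counts say little about these genes in particular. At 48 h between peptides, 71 had a value, of which 35 were lower (49.3%, against 19.8% of all genes) and 4 higher (5.63%, against 21.2%), with a median of -0.88. From 24 h to 48 h with non-specific stapled-peptide, 37 of 71 were lower (52.1%, against 20.1% of all genes) and 5 higher (7.04%, against 21.3%). The counts per role list that follow are for 48 h between peptides, and each list holds few genes. They stand beside the same 19.8% lower and 21.2% higher of all genes.

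Of the other actins, neither ACTG2 (4.67 and 4.24 at 24 h, 4.35 and 4.27 at 48 h) nor ACTC1, dim on all 4 arrays, passed 2-fold. ACTA1, the skeletal muscle actin, was dim on the first 3 arrays and read 5.91 on the last, at least 4.07-fold higher. TPM4, another tropomyosin, read 11.08 and 11.12 at 24 h and 11.18 and 9.23 at 48 h, 3.85-fold lower. TPM3 differed by -0.66 for its probe with the highest mean signal, while another of its probes read 4.71 and 5.77 at 48 h, 2.10-fold higher. Of 3 calponin and transgelin relatives with a value, 2 were lower, CNN2 by 15.6-fold (11.22 against 7.26) and TAGLN2 by 2.90-fold, while CNN3 differed by -0.11. Of the 3 other actinins, ACTN4 was 3.14-fold lower, ACTN3 6.62-fold lower and ACTN2 at least 2.14-fold higher. The ACTN3 fold rests on a signal of 3.7 on the last array that did not pass the background mark.

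Among the myosin II heavy chains, 2 of 4 were lower. MYH9, the main non-muscle heavy chain, read 12.97 and 13.04 at 24 h and 13.00 and 10.54 at 48 h, 5.52-fold lower. MYH14 was 2.78-fold lower by its probe with the highest mean signal and 5.08-fold higher by the other, so its direction depended on the probe. MYH10 differed by 0.96 and MYH11, the smooth muscle heavy chain, by 0.06. Of the light chains with their kinase and phosphatase, 4 of 7 were lower. MYL12A and MYL12B, the regulatory light chains most like MYL9, were 7.31-fold (14.34 against 11.47) and 3.85-fold lower, MYLK, which phosphorylates such chains, 2.88-fold and MYL6, an essential light chain, 2.85-fold. The phosphatase subunits PPP1CB and PPP1R12A differed by 0.17 and -0.18.

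Crosslinkers and focal adhesion proteins were lower in 12 of 15 genes, with a median of -2.02. CSRP1, a LIM-domain protein of the actin cytoskeleton, read 11.21, 11.26 and 11.27 on the first 3 arrays. On the last it read 3.67 and did not pass the background mark, and its 194-fold lower value rests on that signal. LASP1 was 9.89-fold, FLNA, which ties filaments into networks, 9.35-fold and LPP 8.94-fold lower. In filament turnover, 6 of 11 genes were lower. TMSB4X and TMSB10, which bind actin monomers, were 18.4-fold and 7.63-fold lower, GSN, which severs filaments, 15.2-fold and WDR1 3.65-fold. The ARP2/3 complex, which starts branched filaments, had 3 of 7 subunits lower, ARPC1B by 6.95-fold, ARPC5 by 3.57-fold and ARPC4 by 3.07-fold, with ARPC3 having no probe matched to its symbol.

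The transcription genes with a value stayed within 2-fold between peptides at 48 h, as did 10092 of 17112 genes. SRF read 6.41 and 6.15 at 24 h and 6.41 and 6.67 at 48 h, a difference of 0.27 at 48 h, and its cofactors MRTFA and MRTFB differed by -0.46 and 0.06, so that 0 of 3 passed 2-fold. MYOCD, the muscle cofactor, was dim on all 4 arrays. Of 6 smooth muscle genes, SMTN was 2.12-fold lower, SYNPO2 2.51-fold higher and 4 stayed within 2-fold. That is 16.7% in each direction, near the 19.8% lower and 21.2% higher of all genes. The SYNPO2 fold rests on a stapled-peptide signal of 3.98 that did not pass the background mark. Smooth muscle markers as a list had 4 or 5 of 6 genes well above background on each array, and the log2 of their summed signal ran from 8.86 to 9.12 on the first 3 arrays and was 8.32 on the last.

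**Figure D2:**
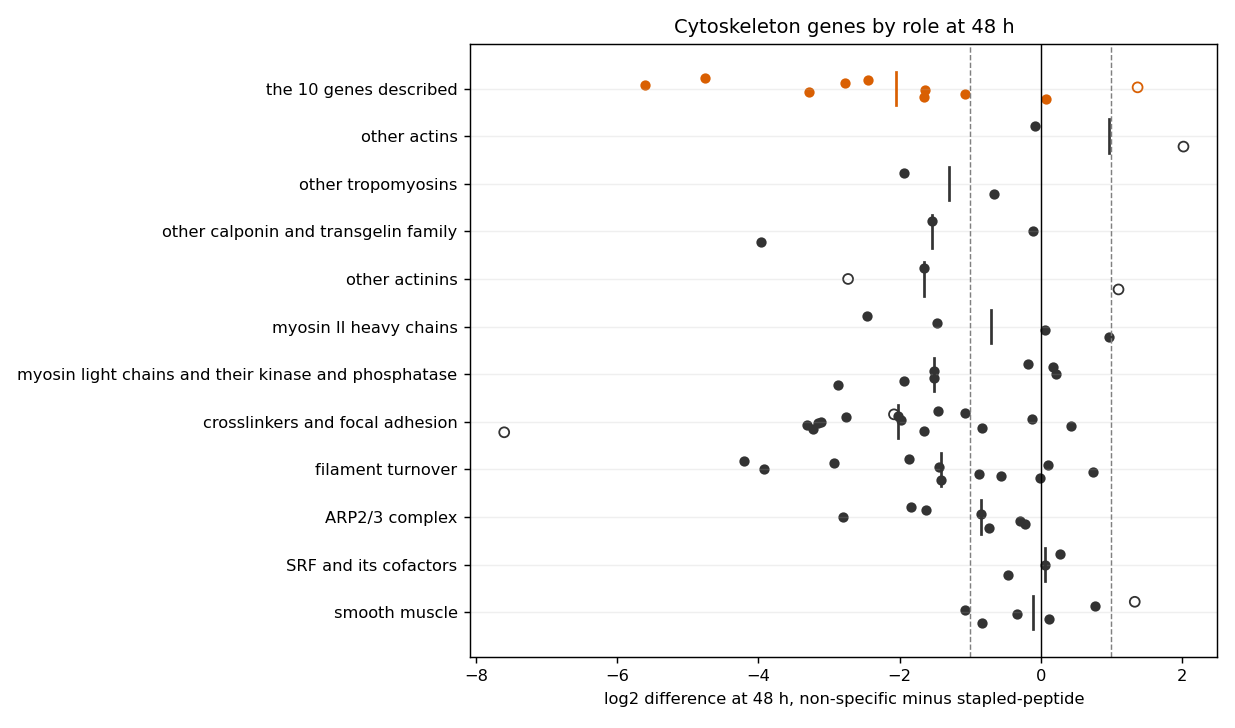
Log2 difference between the peptides at 48 h (horizontal axis) for the 10 genes (orange) and the wider cytoskeleton genes by role (vertical axis), with 1 symbol per gene, open symbols for bounds, a short line at each list's median and dashed lines at 2-fold. Crosslinkers and focal adhesion genes, 12 of 15 of them lower (80.0%, against 19.8% of all genes), lie to the left and the 3 genes of SRF and its cofactors lie near 0.

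Of the wider genes, 13 of 68 with a window held a CArG box, or 19.1%, against 1.6% of all genes. Over both sets, 15 genes held one, and 14 of them had a value at 48 h. Of these, 9 were lower and 1 was higher, with a median of -1.30. With or without a box, 8 of the 10 genes were lower and 1 higher. Of the 71 wider genes with a value, 35 were lower and 4 higher. Among all genes, 19.8% were lower and 21.2% higher. Nothing particular to genes with a box is drawn from this. Stretches of 40 bases around the box, in capitals, are given for lower genes (CNN2, FLNA, LPP, TPM4, MYLK), a higher gene (ACTA1) and one within 2-fold (ACTG2), since the box alone was in windows of all 3 kinds. They lie on GRCh38.p14 at chr19:1026504-1026543 (plus strand), chrX:154374704-154374743 (minus), chr3:188212514-188212553 (plus), chr19:16067350-16067389 (plus), chr3:123620618-123620657 (minus), chr1:229434167-229434206 (minus) and chr2:73892883-73892922 (plus), in the order printed.
CNN2: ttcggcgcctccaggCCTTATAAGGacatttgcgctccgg
FLNA: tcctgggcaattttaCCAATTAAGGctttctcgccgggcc
LPP: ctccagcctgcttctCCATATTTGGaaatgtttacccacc
TPM4: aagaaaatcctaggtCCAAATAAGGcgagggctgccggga
MYLK: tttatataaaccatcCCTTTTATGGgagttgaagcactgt
ACTA1: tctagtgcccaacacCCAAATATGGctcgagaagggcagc
ACTG2: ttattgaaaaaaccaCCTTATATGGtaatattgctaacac
The boxes of CNN2, FLNA, MYLK, ACTA1 and ACTG1 begin 89, 94, 94, 97 and 94 bases before the start, those of TPM4 and LPP 173 and 183 bases before it, and the first of 2 boxes of ACTG2 110 bases before it. ACTG1 and ACTN1, with a box each, were 2.11-fold and 9.70-fold lower at 48 h.

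Markers of other cell types moved on the same array. The counts of lower and higher markers at 48 h are between peptides. They stand beside 19.8% of all genes lower and 21.2% higher. Luminal mammary markers had a log2 summed signal of 15.04 to 15.11 on the first 3 arrays and 12.70 on the last, with 7 of 7 genes well above background on each. The sum rests on few genes: 3 of 7 were lower at 48 h (KRT8, KRT18 and MUC1), FOXA1 was 2.48-fold higher, and the median was -0.31. Fibroblast and mesenchymal markers had 16.71 to 16.77 and 13.99, with 4 of 7 genes well above background on each array and COL1A2 and COL3A1 dim on all 4. This sum too rests on few genes, as VIM alone read 13.97 on the last array. At 48 h, 3 of 5 genes with a value were lower (VIM, DCN and, as a bound, PDGFRB), and COL1A1 and LUM stayed within 2-fold. On the last array PDGFRB did not pass the background mark, and LUM passed it there alone. Basal epithelial markers were lower in 10 of 10 genes at 48 h, with a median of -7.14, and embryonic kidney and neural markers were higher in 5 of 7 with a value, with a median of 6.13. Their part in the cytoskeleton differences was not tested. Peptide, time and whatever else sets this array apart cannot be told apart, since 1 array holds all of them.

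**Figure D3:**
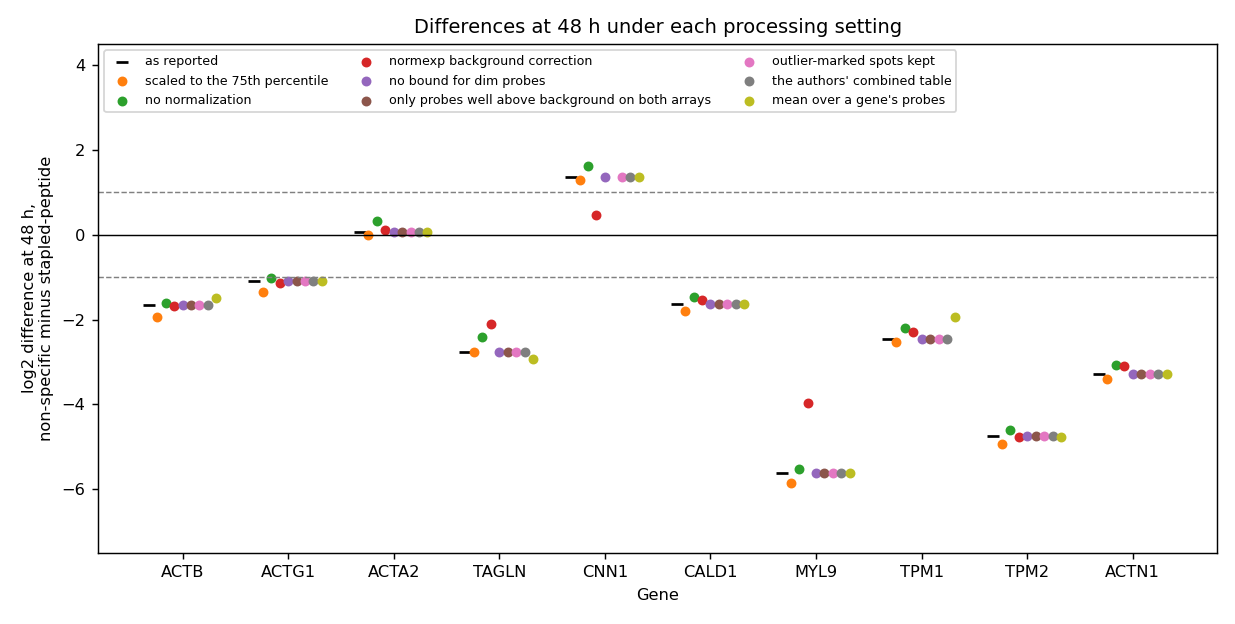
Log2 difference between the peptides at 48 h (vertical axis) of the 10 genes (horizontal axis) as reported (black bars) and under each processing setting (coloured points), with dashed lines at 2-fold. CNN1 was dim on the stapled-peptide array. The sign of the 9 genes other than ACTA2, whose values lie around 0, was kept, while MYL9 and TAGLN came closer to 0 and CNN1 fell within 2-fold under normexp background correction.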

How the data were processed

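Total RNA of MCF-10A cells was labelled with Cy3 and hybridised to Agilent whole human genome arrays, 1 array per peptide and time. The authors' Feature Extraction files hold spot intensities that are linear and background-subtracted and, per the file headers, come from version 10.7.1.1, whereas the labels name version 9.5. The deposited combined table holds, per probe, the geometric mean intensity of the spots not marked as outliers. Neither was normalized between arrays. Control spots and spots marked as outliers were left out, between 343 and 438 of 58717 per array, spots were averaged per probe on the log2 scale, and these log2 values, computed here from the deposited intensities, were quantile-normalized over the 4 arrays, as the study's methods state. No spot was saturated, and 62.5% to 65.7% of spots were well above background. The scanner's mark of a signal well above background was taken for a probe from the majority of its spots. A probe dim on 1 array of a comparison was raised to the lowest signal well above background there, unless its own signal was already higher. Its value was marked as a bound. Where the dim signal was kept, as for CNN1, CSRP1, ACTN3 and SYNPO2 between peptides at 48 h, the value is not a strict limit. A probe dim on both gave no value. A gene took the value of its probe with the highest mean. Symbols came from RefSeq accessions, for 28168 of 50590 probes (55.7%).

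No test was made: a model of peptide and time over 4 arrays would leave 1 residual degree of freedom. The genes, role lists, markers and comparisons were chosen with earlier results of these data known. Values of 1 role list are not reported here by gene, although its genes are in the counts over all lists. The genes named are the 10 genes with every probe, up to 4 per role list with the largest 48 h difference past 2-fold, genes with another probe past 2-fold in the direction opposite to their own value, and the 5 genes with the profile nearest to that of the gene with the largest difference. Genes named within 2-fold were added after their values were seen. The steps were tested on simulated data in which few genes changed. That test does not cover an array on which as many genes differ as on the one that stood apart. Python 3.11.15, numpy 2.4.6, pandas 2.3.3, matplotlib 3.10.9 and limma 3.58.1 in R 4.3.3 (normexp, offset 50) were used. Other settings tried were normexp, no normalization, 75th-percentile scaling, no bound, probes that passed the background mark on both arrays alone, outlier spots kept, the combined table, the mean over a gene's probes, a 4-fold threshold and, chosen after seeing the data, normalization over the other 3 arrays.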

Additional observations from a re-analysis of the deposited data

How the results depend on the processing

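Of 320 values of single genes under the alternative settings, 311 moved by less than 0.34, the standard deviation of the 24 h differences over all genes, and 9 moved by more. The sign of 12 changed, none of them past 2-fold: their sizes were at most 0.07 as reported and 0.20 under the setting, and they include ACTA2 at 48 h, which went from 0.07 to -0.01 with scaling to the 75th percentile, and 5 genes for 48 h against 24 h with stapled-peptide without normalization. The 9 belong to TAGLN, CNN1, MYL9 and TPM1. The combined table, no bound and the mark required on both arrays left every single-gene value they gave as reported. These values are among the 320, so the 311 overstates how far the settings put the values to a check. At 48 h between peptides, TAGLN was -2.42 without normalization and -2.11 with normexp, MYL9 -3.96 with normexp and TPM1 -1.95 as the mean over its probes. CNN1 was 0.47 with normexp, so that 0 of the 10 genes were higher under that setting, in both comparisons that use the array that stood apart, as when probes had to pass the background mark on both arrays and at the 4-fold threshold. Of all genes, 14.3% and 14.1% were higher in these comparisons with normexp, 18.9% and 19.2% with the mark required on both arrays, and 8.1% and 8.12% at 4-fold. With the mark required on both arrays, the medians of the 10 genes were -2.45 between peptides at 48 h and -2.59 for 48 h against 24 h with non-specific stapled-peptide. At 4-fold, 5 of the 10 genes were lower in both comparisons, against 8.7% of all genes between peptides at 48 h and 8.47% for 48 h against 24 h, and of the wider genes 17 were lower and 1 higher between peptides at 48 h, against 8.7% and 8.1%. At 2-fold, 7 wider genes were higher between peptides at 48 h without normalization, against 27.2% of all genes. With normexp 1 was, against 14.3%, and 1 when both arrays had to pass the background mark, against 18.9%. The cause of these shifts was not tested. Without normalization the median of all genes at 48 h between peptides moved to 0.26 and the share of genes past 2-fold that were higher from 51.7% to 62.6%. For 48 h against 24 h with stapled-peptide, that share went from 44.9% to 15.5% without normalization and 30.3% with scaling to the 75th percentile, and at 24 h from 44.7% to 33.3% with normexp. With scaling, the median for 48 h against 24 h with non-specific stapled-peptide was -0.12. Low signal limits CNN1 and the last value of MYL9.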
